A study of Mus musculus with 10 samples.

Results

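The neuron navigator genes Nav1, Nav2 and Nav3 were followed in mouse midbrain at embryonic day 14.5. They are 3 of the 30935 genes in the count table, found by symbol as Entrez genes 215690, 78286 and 260315. They were chosen because Nav1 and Nav2 were among the leading higher genes of the deletion group, so their difference between the groups is described here without a test. The same holds for Nav3, which was measured in the same contrast. Each group held 5 libraries of separate embryonic midbrain samples, labelled wild-type 1, 2, 4, 5 and 6 and deletion 2, 3, 4, 5 and 6. The wild-type group was Rbfox1 +/+. The deletion group was Rbfox1 ΔHAR.321/ΔHAR.321, homozygous for loss of HAR.321, a human accelerated region (a sequence conserved among vertebrates that changed fast on the human lineage) in the Rbfox1 locus. The labels give no sex, litter, strain background or number of founder lines for the embryos. Nothing in the labels ties a replicate number to a shared litter or day.

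Navigators are large cytoskeletal proteins of migrating cells and growing axons, the vertebrate relatives of UNC-53 of the worm Caenorhabditis elegans, which guides axons and cell migration. They ride on the growing plus ends of microtubules by binding end-binding proteins, and their C-terminal part carries an AAA+ ATPase domain. Nav2 and Nav3 also have an N-terminal calponin homology domain, an actin-binding fold that Nav1 lacks. The genes share only an abbreviation with the voltage-gated sodium channels.

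The 3 genes lie on chromosomes 1, 7 and 10 and are long. In the GENCODE M21 annotation (GRCm38, a build other than that of the counts, so that only lengths and sequences were taken from it), the longest transcript was 13117 bases for Nav1, 11317 for Nav2 and 9962 for Nav3. These are longer than the longest transcripts of 99.5%, 99.0% and 98.4% of all counted genes with a length. The longest coding sequences held 1875, 2432 and 2366 codons, spread over transcripts of 30, 38 and 39 exons. Nav2 had the most annotated forms, 18 against 8 for Nav1 and 6 for Nav3, and its exons together covered 32228 bases against 17303 and 15207.

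The relation of the 3 genes can be seen in the codons for the Walker A loop, the nucleotide-binding loop of the ATPase domain. They are shown because this stretch encodes the same residues in all 3 members. It was found in each coding sequence by translating it and searching for the loop's consensus. The consensus also matched at 1 place farther upstream in Nav1 and in Nav3, and the loop near the end of the coding sequence is shown. Capitals mark the 7 of 24 bases that vary among the members.
Nav1: ggCccCagTggCacCggCaaGacc
Nav2: ggCccCagCggCacTggGaaAacc
Nav3: ggAccAagCggGacGggAaaGacc
Nav1 and Nav2 differed at 4 of the 24 bases, and each of them differed from Nav3 at 6. The loop began at codon 1556 in Nav1, 2101 in Nav2 and 2037 in Nav3.

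Over whole coding sequences the members were far apart in their bases, which bears on whether reads could be placed on the wrong member. In global alignments, Nav2 and Nav3 had the same base at 67.6% of 6822 aligned positions, Nav1 and Nav2 at 65.0% of 5336, and Nav1 and Nav3 at 62.7% of 5279. The longest identical run in the coding sequences of each pair is printed here, since it sets how long a read must be to tell the members apart.
Nav2 and Nav3: ccatcccaacacagccacggt
Nav1 and Nav3: aagaaaaagaagaaga
Nav1 and Nav2: tcccaggaaaaggtg
These runs were 21, 16 and 15 bases long. No stretch of 50 bases was shared between any annotated transcripts of 2 members. Other genes overlapped the exons only slightly: 589 exonic bases of Nav1 (3.4%) lay opposite the antisense gene Gm4793, and 295 exonic bases of Nav2 (0.92%) were shared with Gm2788 on the same strand. Whether the counting used strand is not stated in the sources.

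The RefSeq promoter table (GRCm38.p6, windows of 300 bases that start upstream of a gene's first base and run past it) matched 2 of the 3 members, with 1 start of Nav1 and 2 of Nav2; Nav3 was not matched. The windows are shown to describe the starts of these genes. Whether they bear on the members' difference between the groups was not tested. Capitals mark the motifs GGGCGG (the GC box), CCAAT and TATAAA, read on either strand, with overlapping matches run together.
Nav1 chr1:135585306-135585605 (minus strand): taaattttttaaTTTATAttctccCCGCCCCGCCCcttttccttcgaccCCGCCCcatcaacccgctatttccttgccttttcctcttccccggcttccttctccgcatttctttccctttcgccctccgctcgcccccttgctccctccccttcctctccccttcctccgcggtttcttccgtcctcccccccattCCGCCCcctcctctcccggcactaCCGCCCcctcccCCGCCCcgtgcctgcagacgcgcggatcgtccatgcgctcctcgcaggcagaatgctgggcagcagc
Nav2 chr7:48958823-48959122 (plus strand): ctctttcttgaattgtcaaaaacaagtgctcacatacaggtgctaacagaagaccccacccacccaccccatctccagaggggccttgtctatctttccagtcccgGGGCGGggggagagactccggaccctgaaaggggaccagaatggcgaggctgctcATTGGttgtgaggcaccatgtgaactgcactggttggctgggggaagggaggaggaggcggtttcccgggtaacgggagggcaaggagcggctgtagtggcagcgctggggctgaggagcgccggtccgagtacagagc
Nav2 chr7:49245939-49246238 (plus strand): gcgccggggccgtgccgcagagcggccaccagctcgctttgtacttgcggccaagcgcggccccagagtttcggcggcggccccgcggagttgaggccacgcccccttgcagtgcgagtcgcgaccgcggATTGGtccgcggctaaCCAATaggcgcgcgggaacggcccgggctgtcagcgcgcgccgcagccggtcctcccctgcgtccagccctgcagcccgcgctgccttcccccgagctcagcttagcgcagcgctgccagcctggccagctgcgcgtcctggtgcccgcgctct
The Nav1 promoter held 6 GC boxes and 1 TATAAA, and no CCAAT. The upstream Nav2 promoter held 1 GC box and 1 CCAAT, and the downstream one 2 CCAAT and no GC box. Of all 32851 promoters in the table, 35.7% held a GC box, 37.4% a CCAAT and 13.6% a TATAAA. The 3 windows held 24, 12 and 42 CpG dinucleotides against a median of 7 over all promoters. Fewer were held by 80.0%, 60.4% and 97.0% of all promoters, in the same order. These matches are a description of the letters and show no binding.

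The libraries held 16246892 to 20255728 counts, and between 1118 and 5134 of them fell on a member. All 3 members passed the filter on low counts, which left 15288 genes. Counting alone thus gives a relative error of 1.40% to 2.99% per value, below the spread between libraries of a group. All 14 midbrain markers listed, among them En1, En2 and Otx2, were detected at a mean of at least 1 CPM (counts relative to the library total after TMM scaling), and their summed level was 891.2 to 1009 CPM in the wild-type and 834.0 to 981.6 CPM in the deletion libraries. Of 8 hindbrain markers, 7 lay under 1 CPM (Hoxb2, Hoxa3 and Hoxb3 had no count). Of the forebrain markers, Lhx2 averaged 160.7 CPM over all libraries, and Dlx1 and Dlx2 lay under 1 CPM. Rbfox1, the splicing regulator at whose locus the deletion lies, averaged 149 ± 11.02 CPM in wild-type and 161 ± 13.7 CPM in deletion libraries (SD, n = 5 each). Its log2 fold change was 0.11 (SE 0.07), with a Benjamini-Hochberg adjusted p = 0.607 in edgeR, with 4 of its 5 deletion values over the average of the wild-type ones.

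Nav1, which binds microtubule plus ends in growth cones, drew the most counts of the 3 members. In the wild-type libraries 1, 2, 4, 5 and 6 it stood at 170.9, 222.3, 180.7, 163.1 and 190.7 CPM. In the deletion libraries 2, 3, 4, 5 and 6 it stood at 244.3, 230.7, 228.0, 222.8 and 269.8 CPM. Every deletion library lay above every wild-type library, but wild-type 2 came within 1 CPM of deletion 5, and deletion 6 stood above the rest. The means were 186 ± 23.0 and 239 ± 18.9 CPM (SD, n = 5 each), a fold of 1.29 and a log2 fold change of 0.37 (SE 0.08).

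Nav2, which human neuroblastoma cells induce on exposure to retinoic acid and which takes part in the outgrowth of neurites, drew the fewest counts on average. It stood at 80.5, 83.8, 61.8, 64.5 and 72.4 CPM in wild-type 1, 2, 4, 5 and 6, and at 96.6, 83.5, 108.7, 94.3 and 102.5 CPM in deletion 2, 3, 4, 5 and 6. Here the groups overlapped: deletion 3 lay just below wild-type 2, while the other deletion libraries lay above every wild-type library. The means were 72.6 ± 9.64 and 97.1 ± 9.44 CPM, a fold of 1.34 and a log2 fold change of 0.42 (SE 0.09), the highest of the 3 members.

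Nav3, a navigator known for its expression in the nervous system, stood at 94.7, 104.8, 93.5, 84.4 and 97.7 CPM in the same wild-type libraries. It stood at 116.9, 111.0, 108.1, 112.5 and 131.4 CPM in the same deletion libraries. The groups did not overlap, and wild-type 2 and deletion 6 were again the highest of their groups. The means were 95.0 ± 7.39 and 116 ± 9.19 CPM, a fold of 1.22 and a log2 fold change of 0.29 (SE 0.07), the lowest of the 3. Nav3 also varied least among the wild-type libraries, with a coefficient of variation of 7.78% against 12.4% for Nav1 and 13.3% for Nav2.

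**Figure D1:**
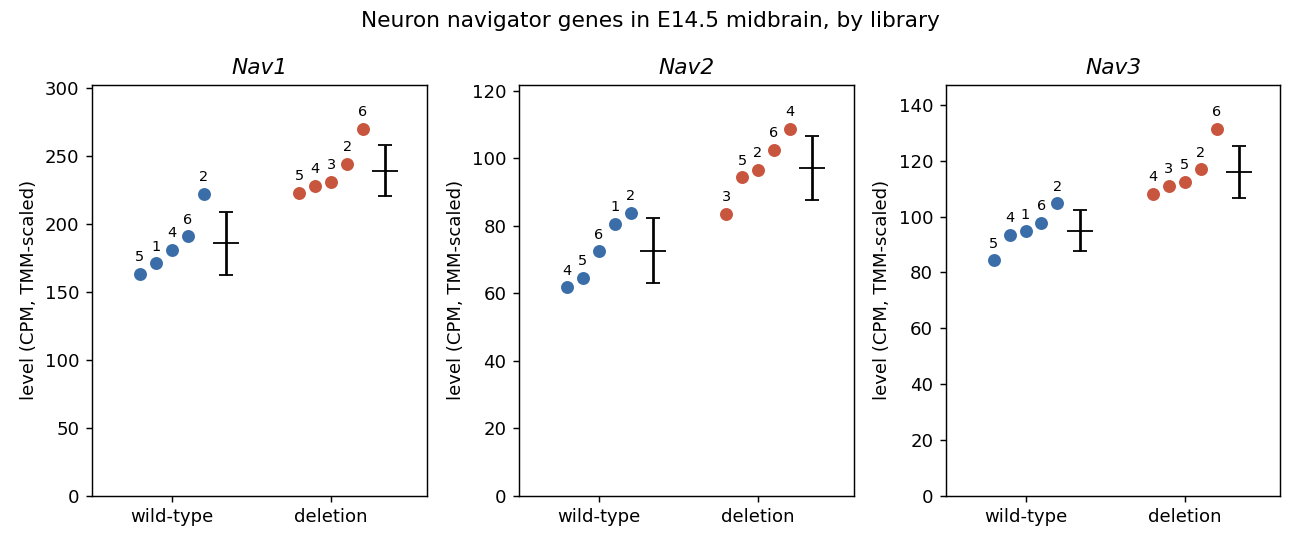
Level of Nav1, Nav2 and Nav3 in CPM (vertical axis from 0) in each library, as points numbered by replicate and spread sideways by rank, with the mean and SD of 5 libraries as a black bar. The deletion points stand above all wild-type points for Nav1 and Nav3, and for Nav2 all but deletion 3 do.

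As a background for these counts, edgeR's quasi-likelihood test called 9 of 15288 genes at a Benjamini-Hochberg adjusted p of 0.05, 0.0589%, all of them lower. Over all tested genes the median log2 fold change was -0.002, and 49.3% of them were higher in the deletion group. For 187 genes, 1.22%, every deletion library lay above every wild-type library, and for 193, 1.26%, every one lay below. Among genes with a mean of at least 50 CPM, every deletion library lay above every wild-type library for 2.51%. DESeq2 gave an adjusted p for only 8174 genes, and at the same threshold it called 1.63% of these higher and 1.65% lower. The shares with limma-voom, over all 15288 genes, were 0.00654% higher and 0.0523% lower. The DESeq2 shares thus have a smaller base than the others. The counts of edgeR's calls moved with single libraries: without deletion 4 it called 137 genes higher and 220 lower, and without wild-type 2 it called 57 and 31. Since the members were chosen from this contrast, nothing is read from their place in it.

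The summed level of the 3 members was 353 ± 36.9 CPM among wild-type and 452 ± 31.55 CPM among deletion libraries. Nav1 made up 52.5% ± 1.88 of the members' counts in wild-type and 52.9% ± 1.25 in deletion libraries, Nav2 20.6% ± 1.75 and 21.5% ± 1.86, and Nav3 27.0% ± 0.871 and 25.6% ± 0.789 (SD, n = 5 each). The ratio of Nav1 to Nav3 counts ran from 1.805 to 2.12 over all 10 libraries, and that of Nav1 to Nav2 from 2.10 in deletion 4 to 2.925 in wild-type 4.

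Counts grow with transcript length, so the members' levels were compared per kilobase. With the union of annotated exons as the length, the wild-type group stood at 10.7 ± 1.33 CPM per kilobase for Nav1, 6.25 ± 0.486 for Nav3 and 2.25 ± 0.299 for Nav2 (SD, n = 5). The deletion libraries stood at 13.8 ± 1.09, 7.63 ± 0.604 and 3.01 ± 0.293. The order Nav1, Nav3, Nav2 held in all 10 libraries, and neighbours in it did not overlap. The choice of members did not use this order, so it was tested: in an exact two-sided paired permutation test over the 10 libraries, each of the 3 pairs gave p = 0.00195, the smallest that 10 libraries allow, and the same value when adjusted over the 3 pairs. The mean log2 difference of the per-kilobase level was 2.23 between Nav1 and Nav2, 0.82 between Nav1 and Nav3, and -1.41 between Nav2 and Nav3.

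The size of these differences rests on the length chosen, a constant for each gene that shifts every tested difference alike. The p-values therefore hold only for the length given. In counts without a length, Nav2 stood at 1.005-fold Nav3 in deletion 4 and below Nav3 in every other library. With the longest transcript as the length, Nav1 had a level 2.17-fold that of Nav2 per kilobase, against 4.68-fold with the union of exons. With the coding length, the difference was 3.26-fold. Nav2 stayed lower than Nav3 in all 10 libraries with each length, at 0.376-fold, 0.702-fold and 0.776-fold with the union of exons, the longest transcript and the coding length. Which forms the midbrain uses was not analysed here.

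**Figure D2:**
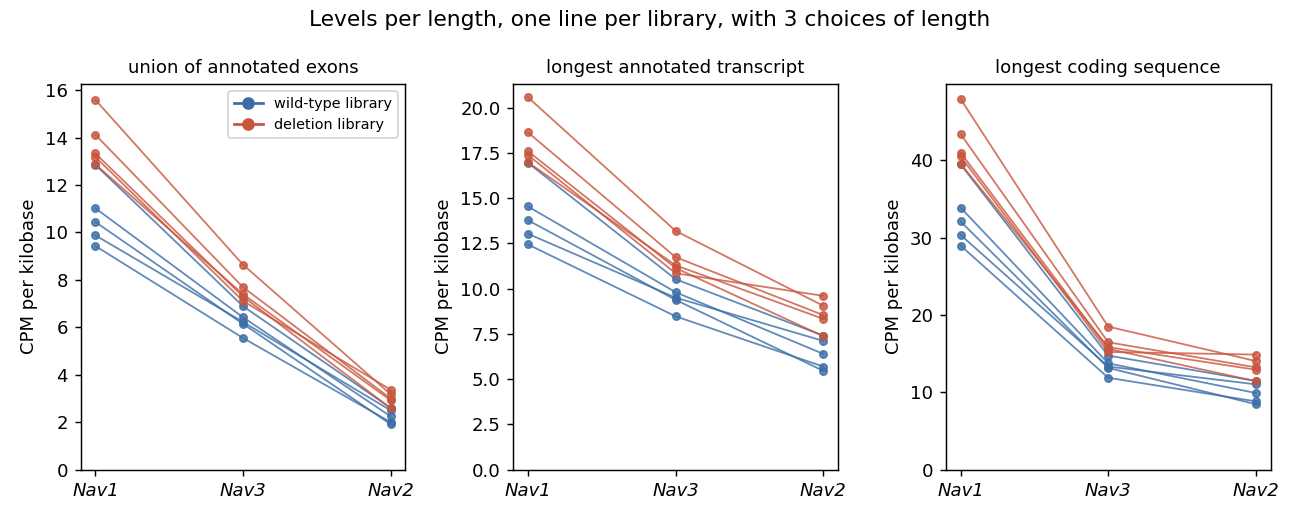
Level per kilobase (CPM per kilobase, vertical axes from 0) of Nav1, Nav3 and Nav2 with each of 3 choices of length, with a line for each library, blue for wild-type and red for deletion. Every line falls from Nav1 to Nav3 and from Nav3 to Nav2 in each panel.

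The members did not all follow the same course from library to library. Of the log2 CPM of each gene, centred on its mean over the 10 libraries, the root mean square difference between Nav1 and Nav3 was 0.070, while Nav2 differed from Nav1 by 0.147 and from Nav3 by 0.149. Among 10313 other genes with a mean of at least 10 CPM, Nav3 ranked 2nd in likeness to Nav1, and Nav2 ranked 417th. The ranks differ by the side taken. In likeness to Nav3, Nav1 ranked 28th and Nav2 1349th, and in likeness to Nav2, Nav1 ranked 136th and Nav3 148th. Deletion 4 had the highest Nav2 level of all libraries (0.38 above the Nav2 mean on the log2 scale) but stood only 0.12 and 0.05 above the means of Nav1 and Nav3. In wild-type 1 Nav2 was also the highest, at -0.05 against -0.145 for Nav3 and -0.295 for Nav1, but there Nav3 lay nearer to Nav2 than to Nav1. The root mean square difference includes the difference between the groups. With each library taken as a deviation from its group mean, the difference between Nav1 and Nav3 was 0.057 (rank 20 for Nav1 and 79 for Nav3). Nav2 differed by 0.145 from Nav1 and 0.133 from Nav3 (ranks 2658 and 3313 for Nav1 and Nav3). In likeness to Nav2, Nav1 then ranked 2064th and Nav3 1414th.

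The genes most like Nav1 over the 10 libraries, after the same measure, were Cobl, an actin nucleator (0.068), Nav3, the kinesin-family gene Kif26b (0.072) and Nbas, of Golgi-to-ER transport (0.074). Those most like Nav2 were the fatty acid synthase gene Fasn (0.077), Dync1h1, the heavy chain of cytoplasmic dynein (0.077), the teneurin adhesion gene Tenm2 (0.080) and the DNA-binding gene Ahdc1 (0.091). Those most like Nav3 were the adhesion gene Ncam1 (0.051), Fryl, related to the fly cell-shape gene furry (0.051), the autophagy gene Epg5 (0.052) and the hydroxylase gene Ogfod1 (0.055). All 11 genes named here that are not navigators have a longest transcript of at least 4000 bases, against 5756 of the 15077 tested genes with a length. Their median was 9660 bases, against 3386 over those tested genes. Only genes with a mean of at least 10 CPM could be named, and for these no such share was taken. The part of length in the likeness was not tested. All 11 were higher in the deletion group, with log2 fold changes of 0.26 to 0.41, which their likeness to the members brings with it. With deviations from the group means none of these names stayed among the first 4: Mapt, the tau gene, was then first for Nav1 (0.040), Mtor, the growth-controlling kinase gene, for Nav2 (0.043), and the small GTPase gene Arl4c for Nav3 (0.025). With the length and GC trends removed, Fasn and Dync1h1 remained among the first 4 for Nav2 (both 0.075). None of the names remained for Nav1, whose first was Olfm2 (0.038), or for Nav3, whose first was Ttll12 (0.027).

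The libraries differed in how their levels went with transcript length. The slope of log2 CPM on log2 transcript length, over 10798 genes, ran from -0.059 to -0.012 per doubling of length in the wild-type libraries. In the deletion libraries it was 0.041, 0.032, -0.050, 0.048 and 0.099 in libraries 2, 3, 4, 5 and 6. Deletion 6, with the steepest slope, had the highest Nav1 and Nav3 levels. Wild-type 2, with the highest slope of its group (-0.012), had the highest Nav1, Nav2 and Nav3 levels among the wild-type libraries. Deletion 4 had a slope within the wild-type range, and its Nav1, Nav2 and Nav3 levels lay above those of every wild-type library. The part of transcript length in the members' difference was not tested.

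**Figure D3:**
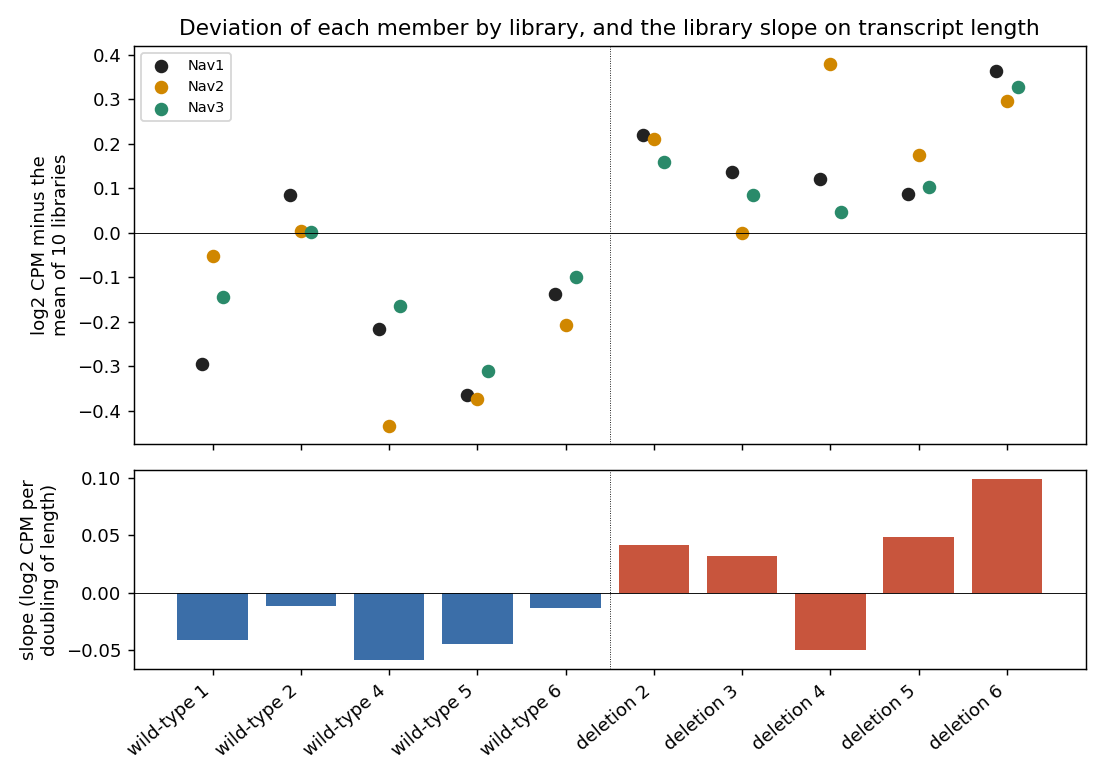
Upper panel: log2 CPM of Nav1, Nav2 and Nav3 in each library minus the gene's mean over the 10 libraries. Lower panel: slope of the library's log2 CPM on log2 transcript length, as bars from 0. All 3 members stand above their mean in deletion 4, where the slope is -0.050, and in deletion 6, where it is 0.099. Nav2 stands apart from the others in wild-type 4, deletion 3 and deletion 4.

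Genes with a longest transcript of at least 8000 bases differed by a median of 0.09 on the log2 scale (908 genes), against -0.14 for those under 1000 bases (809 genes). In that class of long genes, every deletion library lay above every wild-type library for 4.07%. Apart from the members, 27 of the 908 had a log2 fold change at or above that of Nav1. For Nav2 there were 14 such genes and for Nav3 54. The choice of members used this contrast, so nothing is read from these counts. With each library's trend on length removed, the members' log2 fold changes were 0.27 for Nav1 (SE 0.06), 0.34 for Nav2 (SE 0.09) and 0.20 for Nav3 (SE 0.06). With the length and GC trends removed, they were 0.23 (SE 0.05), 0.29 (SE 0.06) and 0.18 (SE 0.05). In that last fit the groups did not overlap for Nav1 or Nav3. Nav1 stood at 176.2 to 211.7 adjusted CPM in the wild-type and 222.3 to 234.5 in the deletion libraries. Nav3 stood at 88.8 to 103.2 and 107.5 to 117.4. The share of all genes with such a gap, deletion higher, was 1.09%. For Nav2, 4 deletion libraries lay above every wild-type library. These are the libraries from which the members were chosen, so the gaps are a description only. The parts of length and GC content in the members' difference were not tested.

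**Figure D4:**
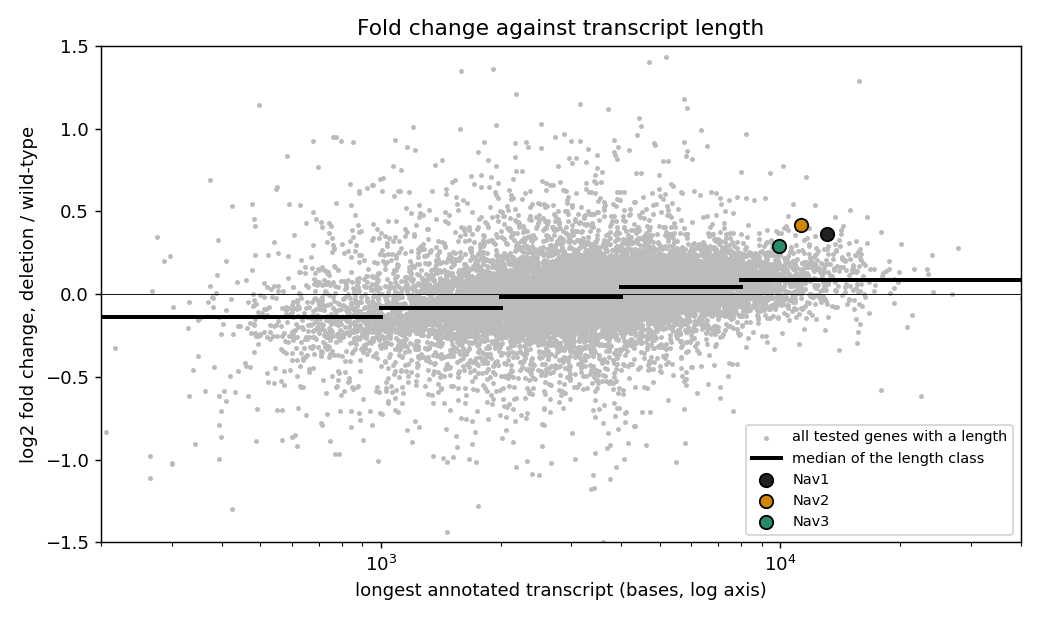
Log2 fold change of deletion against wild-type (vertical axis) against the longest annotated transcript in bases (log axis) for the tested genes, of which 81 of 15077 lie outside the axes. Black lines give the median of each length class, from -0.14 under 1000 bases to 0.09 from 8000 bases, and Nav1, Nav2 and Nav3 stand at 0.37, 0.42 and 0.29.

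Markers of the cell types of the tissue were summed beside these levels. In bulk RNA more cells of a type and more RNA per cell cannot be told apart. Of 15 neuronal markers 11 were higher and 4 lower in deletion libraries (median of the log2 fold changes 0.06), and their summed level ran from 12100 to 12890 CPM in the wild-type and from 11800 to 13660 CPM in the deletion libraries. Of 15 neural progenitor markers 3 were higher and 12 lower, with a median of -0.10 and summed levels of 1433 to 1857 and 1342 to 1869 CPM. Of 7 tested red blood cell markers 7 were higher, with a median of 0.15 and summed levels of the list of 1699 to 2555 and 2234 to 2981 CPM. With the length trend removed 6 of these 7 were higher, with a median of 0.33, and edgeR's unadjusted p was under 0.05 for 4 of them rather than for 1. With the length and GC trends removed the median was 0.31. Microglial markers summed to 71.2 to 76.8 and 66.2 to 75.6 CPM (4 of 10 higher), endothelial ones to 229 to 270.1 and 231 to 262 CPM (5 of 10 higher) and meningeal ones to 25.7 to 33.9 and 28.8 to 35.1 CPM (4 of 7 tested higher). In each of these lists the summed levels of the groups overlapped. No marker of these lists passed edgeR's test or was called by limma-voom, while DESeq2 called 1 neuronal marker higher. At an unadjusted p under 0.05 edgeR had 4 neuronal markers higher, 1 progenitor marker higher and 3 lower, and 1 microglial marker each way. It had 1 red blood cell and 1 meningeal marker higher, and no endothelial marker. Over all genes in this fit the shares were 5.62% higher and 4.92% lower. With the length trend removed, 2 neuronal markers and 1 microglial marker were higher at that threshold, and 2 progenitor markers were lower. The meningeal and endothelial counts did not change. For that fit no share over all genes was taken at this threshold. The part of cell makeup in the members' levels was not tested.

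The partners of navigators on microtubule plus ends were compared next, as a list of 20 genes. Of these, 15 were higher and 5 lower in deletion libraries, and the median of their log2 fold changes was 0.09 against -0.002 over all genes. In edgeR's fit none reached the threshold, against 0.0589% of all genes. At an unadjusted p under 0.05, 5 were higher and none lower, against 5.62% and 4.92% of all genes. Neither DESeq2 nor limma-voom called any. The end-binding proteins, the docking sites of navigators, differed in sign. Mapre2, which encodes EB2, averaged 318 ± 24.6 CPM in wild-type and 359 ± 18.1 CPM in deletion libraries (log2 difference 0.18, SE 0.06, edgeR adjusted p = 0.286), with 5 of 5 deletion libraries above the wild-type mean. The log2 difference of Mapre3, for EB3, was 0.13 (SE 0.07), and that of Mapre1, for EB1, was -0.05 (SE 0.07). Without deletion 4, Apc, a plus-end protein that anchors microtubules, was called higher (log2 difference 0.21, edgeR Benjamini-Hochberg adjusted p = 0.048), against 0.14 (SE 0.07, adjusted p = 0.536) with all libraries.

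Of the proteins that EB proteins bring to plus ends, Clasp1, which stabilises microtubules, differed by 0.16 on the log2 scale (SE 0.06, edgeR adjusted p = 0.341), and its relative Clasp2 by 0.002 (SE 0.07). Clip2, a linker protein (0.16, SE 0.07, adjusted p = 0.389), and Apc2, of the nervous system's APC proteins (0.17, SE 0.07, adjusted p = 0.391), lay at similar values and did not pass. The spectraplakin genes Macf1 and Dst, which join microtubules to actin, had 0.12 (SE 0.07) and 0.15 (SE 0.07). The lowest member was Kif2c, a microtubule-shortening kinesin of dividing cells (-0.11, SE 0.23), at a mean of 8.78 ± 2.35 CPM in the wild-type group. With the length and GC trends removed, the median of the list was 0.02. At an unadjusted p under 0.05, 3 of its genes were higher and 2 lower, and no share over all genes was taken for this fit. The lowest of the list was then Cdk5rap2, of the centrosome, at -0.23. In that fit Clasp1, Clip2 and Apc2 stood at 0.05, 0.09 and 0.07, while Mapre2 stood at 0.16.

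Proteins that bind navigators and the actin signalling around them made up a list of 12 genes. Of these 8 were higher and 4 lower (median of the log2 fold changes 0.04), and none passed edgeR's test (DESeq2 and limma-voom called none). At an unadjusted p under 0.05, 3 of the 12 were higher and none lower, against 5.62% and 4.92% of all genes. With the length trend removed 1 was higher and none lower at that threshold. With the length and GC trends removed 2 were higher and none lower. For these 2 fits no share over all genes was taken at that threshold. Whatever their p, 10 of the 12 were higher and 2 lower with the length and GC trends removed. Trio, a guanine nucleotide exchange factor reported to bind Nav1, had the smallest p: it averaged 269 ± 24.4 CPM in wild-type and 308 ± 19.9 CPM in deletion libraries (log2 difference 0.19, SE 0.07, edgeR adjusted p = 0.271), with 5 of 5 deletion libraries above the wild-type mean. Its relative Kalrn stood at 0.15 (SE 0.07, adjusted p = 0.471), and Wasf1, of the actin-branching WAVE complex, at 0.17 (SE 0.07, adjusted p = 0.386). With the length and GC trends removed, Trio stood at 0.06 and Kalrn at 0.06, and Wasf1 at 0.185. The GTPase gene Cdc42 was the lowest, at -0.09 (SE 0.07, adjusted p = 0.710), and its value was 0.015 in that fit. Rac1 and Rhoa stood at 0.04 (SE 0.06) and -0.02 (SE 0.07). Ywhae, a 14-3-3 gene whose product is reported to bind Nav2, stood at 0.03 (SE 0.06), and Abi1, whose worm relative binds UNC-53, at -0.03 (SE 0.07).

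Retinoic acid genes were listed because of the response of Nav2 to retinoic acid in human cells. Of 18 genes, 14 passed the filter on low counts; Aldh1a2, Aldh1a3, Cyp26a1 and Cyp26c1 did not. Of the 14, 5 were higher and 9 lower (median of the log2 fold changes -0.04), and none passed edgeR's test or had an unadjusted p under 0.05 (DESeq2 and limma-voom called none). The receptor gene Rxrg had the smallest p (0.25, SE 0.22, adjusted p = 0.752) at 3.49 ± 0.679 CPM in the wild-type group. The carrier genes Crabp2 and Crabp1 stood at -0.16 (SE 0.17) and -0.14 (SE 0.18), and Rdh10, the enzyme that begins retinoic acid synthesis from retinol, at -0.10 (SE 0.13). Crabp1 stood at 0.004 with the trend on length alone removed.

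**Figure D5:**
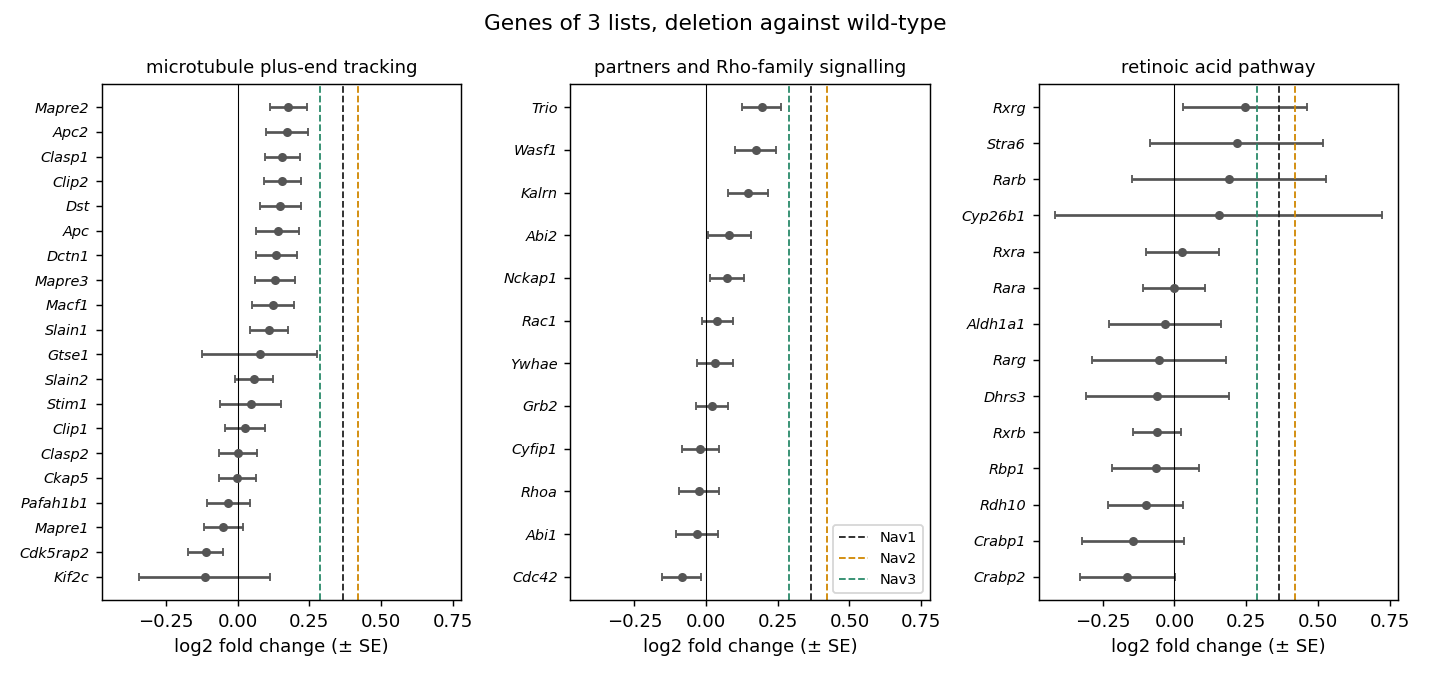
Log2 fold change of deletion against wild-type (points) with its SE (bars) for the tested genes of the 3 lists, with dashed lines at the values of Nav1, Nav2 and Nav3. No point passed the test over all genes. Every point lies below the Nav3 line at 0.29, though some bars of the retinoic acid list, such as that of Rxrg, reach past it. The members were chosen from this contrast, so nothing is read from their place above the points.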

How the data were processed

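Total RNA of E14.5 midbrain was extracted with the Direct-zol kit per the labels' protocols, and the authors deposited raw counts per Entrez gene. HISAT2 (an aligner), featureCounts (a read counter) and the build mm39 are named, without their roles, per the submitters' processing notes. The sources give no annotation, strand setting or treatment of multi-mapping reads. Symbols came from RefSeq (GRCm38.p6; 30648 of 30935 IDs matched), lengths and GC content from GENCODE M21 (29450 IDs). Columns without a sample numbered 0. The closest pair of libraries within a group had a chi-square of 5.96 per degree of freedom over 14091 genes, so all 10 were kept.

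Counts were filtered with filterByExpr, scaled by TMM and fitted over all genes in edgeR 4.0.16 (R 4.3.3; robust quasi-likelihood, group as the only term, two-sided, Benjamini-Hochberg threshold 0.05). The SE is the log2 fold change divided by the square root of F. CPM are TMM-scaled, and the prior count for log2 CPM was 2. The p-values of this fit set the difference between the groups against the spread between these samples. Trends on length or GC content were estimated per library with natural splines (4 degrees of freedom each) from genes whose mean log2 CPM exceeded 3, and entered as offsets. The alternatives were RLE and upper-quartile scaling, no filter, at least 1 CPM in at least 5 libraries, a replicate block, DESeq2 1.42.0, limma-voom (limma 3.58.1), the removal of either trend and leaving out each library.

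The members and gene lists were chosen with earlier results of these data known. Genes named are the members, Rbfox1, the 4 with the smallest p in each list and the 4 most like each member; other list and marker genes were picked for their role or place in a list after their values were seen. The forebrain marker list as a whole is not reported here.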

Additional observations from a re-analysis of the deposited data

Results flagged for a closer look

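The level of each named gene and of the members' ratios was checked within each group of 5 libraries for a library whose gap to its nearest neighbour exceeded 0.71 of the group's range (Dixon's 95% value). This was done 68 times, chance alone flags about 1 in 20 groups, and 5 were found, none of them a navigator. Clip2, a plus-end linker, stood at 260.6 CPM in wild-type 2, above the other wild-type libraries (a gap of 0.794 of the range). Kalrn, a guanine nucleotide exchange factor, stood at 261.8 CPM in deletion 6 (0.851). Cdc42, a small GTPase, stood at 486.0 CPM in wild-type 4 (0.813). The retinoid receptor gene Rxrg stood at 4.67 CPM in wild-type 2 (0.771), and the retinol dehydrogenase gene Rdh10 at 14.7 CPM in deletion 3 (0.720).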

How the results depend on the processing

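The alternatives refit the libraries from which the members were chosen, so they describe the processing and add no support for the members' difference. Nav1, Nav2 and Nav3 kept higher levels in the deletion group in all 19 alternatives. The log2 fold changes were 0.23 to 0.43 for Nav1, 0.29 to 0.52 for Nav2 and 0.18 to 0.32 for Nav3. Leaving out 1 library gave 0.32 to 0.43, 0.37 to 0.47 and 0.24 to 0.32. The count of called genes moved far more: against 0 higher and 9 lower, no filter gave 26 higher and 43 lower, DESeq2 133 higher and 135 lower, the upper quartile 3 higher, limma-voom 1 higher, removal of the length and GC trends 11 higher, and removal of the length trend 0 lower. Leaving out 1 library gave 0 to 137 higher (57 without wild-type 2 and 137 without deletion 4) and 0 to 220 lower (31 and 220 without those same libraries), and the plus-end list had 0 to 1 member called (1 without deletion 4). The cause of these moves was not tested. Cdc42 turned to 0.0148 with the length and GC trends removed and Crabp1 to 0.00433 with the length trend removed, far from the threshold. The order of levels kept its direction; in wild-type libraries alone the log2 differences were 2.25, 0.77 and -1.48 for Nav1 against Nav2, Nav1 against Nav3 and Nav2 against Nav3, with an exact adjusted p of 0.0625, the smallest that 5 libraries allow.

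The replicate numbers 2, 4, 5 and 6 occur in both groups, but same-numbered libraries did not deviate together (correlations of -0.131 to 0.122, and no library was closest to its own number). With the replicate number as a block, 0 genes were called, and the log2 fold changes were 0.36 for Nav1, 0.52 for Nav2 and 0.30 for Nav3. The depth limits the members little, and the 5 libraries per group set the precision.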

Other observations

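Cyp26b1, which breaks down retinoic acid and is named after its values were seen, varied most among the tested retinoic acid genes of more than 1 CPM: it ran from 26.5 to 116.8 CPM among the wild-type and from 29.0 to 117.8 CPM among the deletion libraries, with means of 56.3 ± 38.05 and 62.9 ± 39.4 CPM (SD, n = 5 each).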
